A study of Homo sapiens with 6 samples.

Results

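The NOTCH genes described here are 10 components of the pathway, taken from the count tables by gene symbol. They are the receptors NOTCH1, NOTCH2 and NOTCH3, the ligands DLL1, DLL4, JAG1 and JAG2, the DNA-binding factor RBPJ, and the target genes HES1 and HEY1. All 10 are among the 26364 symbols counted in the 6 RNA-seq libraries. The libraries came from ZR-75-30, an established human breast adenocarcinoma line with amplified ERBB2. In 3 libraries the cells had been infected with pLVX-CDK12, a lentivirus carrying CDK12, and in the other 3 with the pLVX control lentivirus. CDK12 is a kinase that acts with cyclin K on elongating RNA polymerase II. All cells were thus of the same line and all carried a lentivirus. The sources used here do not give the promoter that drives viral CDK12, the time after infection, or whether the cells were a pool or a clone. The submitters' design text calls the libraries biological replicates without saying whether they came from separate infections, so p-values measure only the spread between these libraries.

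NOTCH receptors are transmembrane proteins that are activated by ligands of the Delta-like and Jagged families on neighbouring cells. Ligand pulling exposes the receptor to an ADAM protease and then to the gamma-secretase complex, which frees the intracellular domain. That domain enters the nucleus, joins RBPJ and a Mastermind coactivator on DNA, and turns on genes such as HES1, HEY1 and NRARP. HES and HEY proteins are transcriptional repressors. In the mammary gland NOTCH signalling is known for its part in luminal cell fate, and JAG1 and the receptors are studied in breast cancer.

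RBPJ binds DNA at sites with the core TGGGAA, and promoter windows were read to show where this core lies in the members. The windows run from 250 bases before to 50 bases after a RefSeq transcription start (GRCh38.p14), and 8 of the 10 members have at least 1 such window. DLL1 and HEY1 have none in the table used. The core was searched on both strands, as TGGGAA or TTCCCA. It occurred in the windows of 2 of the 8 members, HES1 and RBPJ. Counted per window rather than per gene, it occurred in 24% of the 35116 windows of all genes, so its presence is not rare. HES1 held 2 matches, and 3.8% of all windows held 2 or more. The matches in HES1 start at bases -84 and -70 from the transcription start, on the same strand as the gene. The upstream match is preceded by G, and the longer motif GTGGGAA, which contains the core, was found in 6.25% of all windows. RBPJ held 2 matches in 1 of its 5 windows. The windows of NOTCH1, NOTCH2, NOTCH3, DLL4, JAG1 and JAG2 held no match, which says only that these letters are not in those 300 bases. Of 13 further target genes, 10 had windows, and 4 of these held the core: HES4, HES5, HEY2 and HEYL. NRARP, HES2, HES6, HES7, CCND3 and CDKN1A held none. HES4 held 1 match, starting at base -76, and is the only tested gene of those 4. The windows of HES1 and HES4 are shown as targets with the core, and that of JAG1 as the member with the largest fall. Each is written 5′ to 3′ on the strand of the gene, with the core in capitals (HES1 at chr3:194135898-194136197, plus strand; HES4 at chr1:1000048-1000347, minus strand; JAG1 at chr20:10673950-10674249, minus strand).
HES1: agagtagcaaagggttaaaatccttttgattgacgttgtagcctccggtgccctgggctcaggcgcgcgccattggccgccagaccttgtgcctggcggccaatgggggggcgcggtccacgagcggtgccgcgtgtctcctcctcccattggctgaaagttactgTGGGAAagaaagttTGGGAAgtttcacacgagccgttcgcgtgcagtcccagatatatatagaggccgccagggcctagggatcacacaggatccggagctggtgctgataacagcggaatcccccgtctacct
HES4: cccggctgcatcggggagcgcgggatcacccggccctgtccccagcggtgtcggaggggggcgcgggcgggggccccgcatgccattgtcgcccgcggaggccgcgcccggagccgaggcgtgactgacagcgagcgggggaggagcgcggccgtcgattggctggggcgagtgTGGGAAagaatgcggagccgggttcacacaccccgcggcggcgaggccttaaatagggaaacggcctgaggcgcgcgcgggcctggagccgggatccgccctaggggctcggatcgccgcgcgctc
JAG1: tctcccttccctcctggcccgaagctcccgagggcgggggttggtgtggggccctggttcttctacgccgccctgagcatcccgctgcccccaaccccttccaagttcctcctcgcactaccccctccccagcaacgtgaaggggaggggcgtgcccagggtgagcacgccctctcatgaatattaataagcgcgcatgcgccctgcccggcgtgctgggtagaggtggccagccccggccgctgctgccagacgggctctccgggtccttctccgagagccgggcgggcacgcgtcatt

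Total counts ran from 23628890 to 26543653 in the CDK12 libraries and from 21178163 to 25014857 in the control libraries, and the 10 members together took 16839 to 17421 and 15247 to 18282 of these counts. Levels are given as CPM, counts relative to library size after TMM scaling. The upper limit for a gene with 0 counts, set at 3 counts, lay between 0.112 and 0.144 CPM over the 6 libraries. The floor and the intervals on shares given below cover counting error only. CDK12 was at 2009, 2240.0 and 2124 CPM in the CDK12 libraries, against 79.0, 81.8 and 72.8 CPM in the control libraries, so each library matched its label (log2 fold change 4.77, SE 0.05, edgeR adjusted p = 1.1e-31; exact two-sided permutation p = 0.1, the lowest possible for 3 against 3). The 10 luminal epithelial markers summed to 12452 to 12997 CPM in CDK12 libraries and 14116 to 14772 CPM in control libraries, with ERBB2 the highest. By edgeR's test 4 of the 10 were called lower, as were 18.9% of all genes tested. Under upper-quartile or total-count scaling in place of TMM, 3 of the 10 were lower and 1 was higher. The 6 endothelial markers summed to 1.64 to 2.29 CPM against 2.73 to 3.33 CPM, the 6 leukocyte markers to 3.17 to 3.54 CPM against 4.99 to 6.28 CPM, and the 6 fibroblast markers to 60.3 to 71.2 CPM against 46.6 to 51.4 CPM, nearly all of it COL1A1. The 6 basal markers summed to 12.3 to 14.8 CPM in CDK12 libraries and 12.1 to 12.8 CPM in control libraries. Within these lists single genes went opposite ways by edgeR's test. PTPRC carried the lower leukocyte sum, with 0.358 CPM in CDK12 libraries and 2.96 CPM in control libraries (log2 fold change -3.02, edgeR adjusted p = 4.51e-11), while CD14 was higher (0.85, edgeR adjusted p = 0.0339). TP63 was lower (-2.99, edgeR adjusted p = 6.17e-10) and ACTA2 higher (0.48, edgeR adjusted p = 0.00167) in the basal list. COL1A1 was higher (0.40, edgeR adjusted p = 6.55e-06) and COL3A1 lower (-2.44, edgeR adjusted p = 0.000181) in the fibroblast list, and COL1A2 had 3, 0 and 1 counts in CDK12 libraries and 5, 8 and 7 in control libraries. No marker was at 0 in all 6 libraries, and the part of these shifts in the results below was not tested. In bulk RNA, fewer cells that express a gene and less RNA per cell cannot be told apart.

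With CDK12 overexpression, JAG1, NOTCH1 and NOTCH3 transcripts fell and DLL1 rose, by 1.18- to 1.31-fold, while no change was called for NOTCH2, JAG2, DLL4, RBPJ or HES1. Of the 9 members that passed the filter on low counts, 4 passed a Benjamini-Hochberg adjusted p of 0.05 (edgeR quasi-likelihood test), which is 44.4% of 9 genes. Among all 14665 genes tested, 35.1% passed, so the count of members is near the background. In each direction, 1 member rose and 3 fell, against 16.2% of all genes called higher and 18.9% called lower. The median log2 fold change was -0.10 over the 9 members and 0.00 over all genes tested. Higher genes made up 46.1% of all calls with TMM scaling, 59.6% with upper-quartile factors and 61.7% with total counts only, but the same 4 members were called in the same direction under each. HEY1 had too few counts to be tested.

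**Figure D1:**
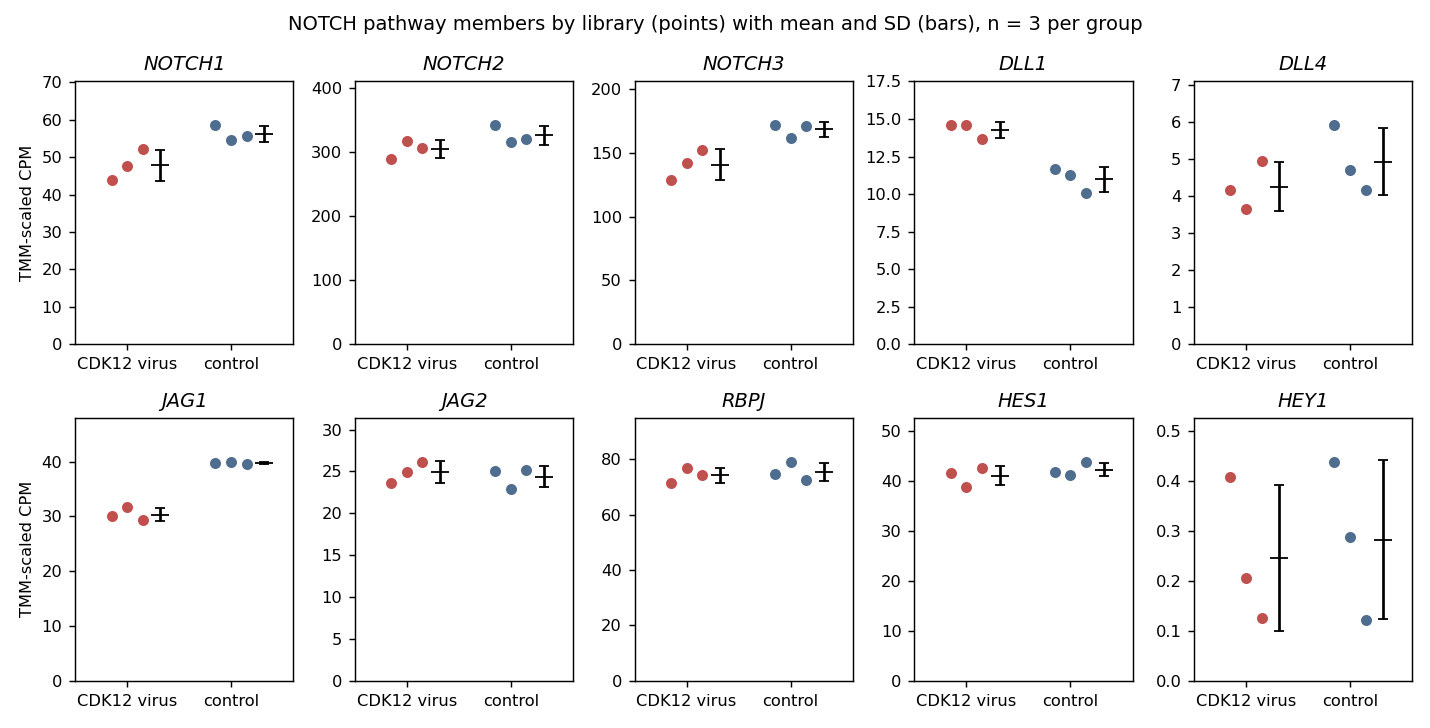
TMM-scaled CPM (vertical axes, each from 0) of the 10 members in the 3 CDK12 and 3 control libraries; points are libraries and bars the mean ± SD. The groups do not overlap for NOTCH1, NOTCH3, DLL1 and JAG1, that is 4 of the 9 members tested, and nor do they for 45.6% of all genes tested. JAG1 shows the widest gap relative to its spread, with 29.3 to 31.6 CPM in CDK12 libraries and 39.5 to 40.0 CPM in control libraries.

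**Figure D2:**
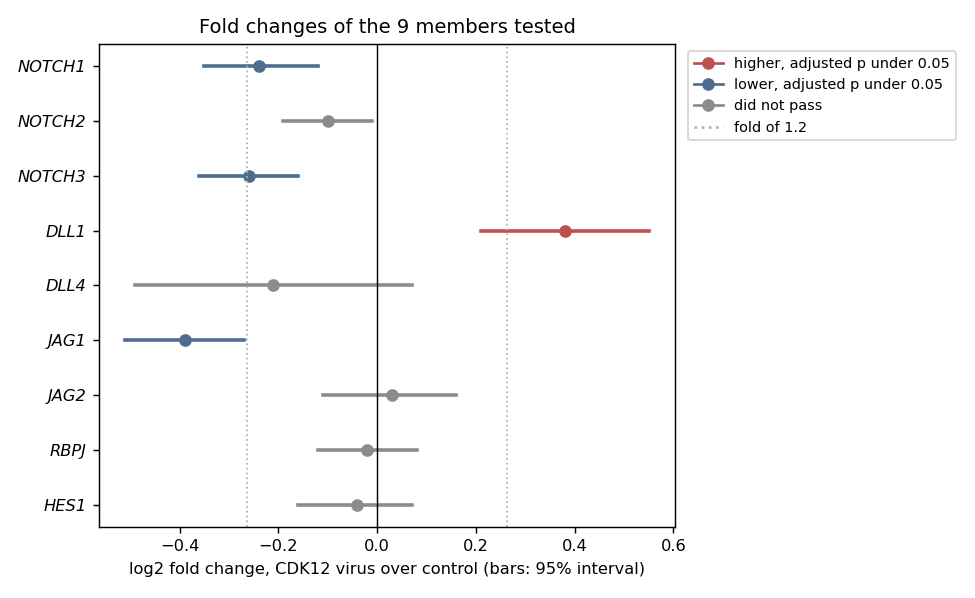
Log2 fold change (horizontal axis, CDK12 over control) of the 9 members tested, with 95% intervals from edgeR's fit; dotted lines mark a fold of 1.2 in either direction. The interval of JAG1 ends at -0.27 and that of DLL1 starts at 0.21, while those of DLL4, JAG2, RBPJ and HES1 include 0.

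NOTCH3 fell. This receptor, best known from vascular smooth muscle, was at 128, 142 and 152 CPM in CDK12 libraries, against 172, 162 and 171 CPM in control libraries. Every CDK12 library lay below every control library, and CDK12 replicate 1 was the lowest. The means were 141 ± 11.8 and 168 ± 5.53 CPM (SD, n = 3 each), a 1.196-fold lower level with CDK12 (log2 fold change -0.26, SE 0.05, edgeR adjusted p = 0.00018). Libraries of the groups were fully separated for 45.6% of all genes tested.

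NOTCH1 fell by a similar amount. NOTCH1, the receptor that is mutated in T-cell leukemia, was at 43.8, 47.6 and 52.2 CPM in CDK12 libraries, against 58.6, 54.4 and 55.8 CPM in control libraries. The groups did not overlap, and CDK12 replicate 1 was again the lowest. The log2 fold change was -0.24 (SE 0.06, edgeR adjusted p = 0.00221), or 1.18-fold lower. CDK12 replicate 1 also stood apart from its group over all genes tested. The chi-square of its counts per degree of freedom was 4.55 against CDK12 replicate 2 and 4.44 against CDK12 replicate 3. It was 2.74 between CDK12 replicates 2 and 3, and 2.87 to 2.92 between control libraries. Without CDK12 replicate 1 both receptors still passed, with log2 fold changes of -0.17 for NOTCH1 (edgeR adjusted p = 0.0188) and -0.19 for NOTCH3 (edgeR adjusted p = 0.00104).

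NOTCH2, the receptor with the most counts, did not pass the test. It was at 289, 317 and 307 CPM in CDK12 libraries and at 342, 316 and 320 CPM in control libraries. The groups overlapped, since CDK12 replicate 2 lay above control replicate 2. The log2 fold change was -0.10 (95% interval -0.19 to -0.01, edgeR adjusted p = 0.077). NOTCH2NL, a partial copy of the start of NOTCH2, shares near-identical sequence with it, so the split of reads between them is uncertain. NOTCH2NL fell to 41.4, 45.6 and 49.1 CPM in CDK12 libraries, against 59.7, 54.9 and 53.9 CPM in control libraries (log2 fold change -0.31, SE 0.06, edgeR adjusted p = 0.00019). With the counts of both added, an alternative chosen after the data were seen, the sum passed with a log2 fold change of -0.13 (edgeR adjusted p = 0.0237). NOTCH2 also passed without CDK12 replicate 2 (-0.13, edgeR adjusted p = 0.0431). In the other direction, its log2 fold change was -0.06 without CDK12 replicate 1 (edgeR adjusted p = 0.285), without control replicate 1 (0.379), with upper-quartile factors (0.279) and with total counts (0.323).

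The mix of the receptors was also taken within each library, as a share that needs no scaling between libraries. A share depends on the other genes of the sum, so it can rise without a rise of the gene itself. The 3 receptors summed to 493 ± 27.2 CPM with CDK12 and 550 ± 20.7 CPM in control libraries (SD, n = 3 each). NOTCH2 made up 62.7%, 62.6% and 60.0% of the counts of the 3 receptors in CDK12 libraries, against 59.8%, 59.3% and 58.5% in control libraries. NOTCH3 made up 27.8%, 28.0% and 29.7% in CDK12 libraries, against 30.0%, 30.4% and 31.3% in control libraries. These shares count NOTCH2 without NOTCH2NL, which fell (log2 fold change -0.31), and the split of reads between those genes is uncertain. Shares with NOTCH2NL added were not tested, so the separation described next may depend on that split. On these counts the point values of neither share overlapped between the groups. The 95% Wilson intervals of CDK12 replicate 3, however, overlapped those of control libraries in both. For NOTCH2 the interval was 59.2% to 60.9% in CDK12 replicate 3 and 58.9% to 60.6% in control replicate 1. For NOTCH3 it was 28.9% to 30.6% and 29.2% to 30.8% in these libraries. The intervals of CDK12 replicates 1 and 2 lay apart from those of all control libraries. The mean of NOTCH2 was 2.57 percentage points higher with CDK12, while that of NOTCH3 differed by -2.05 points. NOTCH1 made up 9.70% ± 0.443 and 10.2% ± 0.0179 (SD, n = 3 each). The exact two-sided permutation p was 0.1 for NOTCH2 and NOTCH3, the smallest this design allows, and 0.2 for NOTCH1; adjusted over the 7 shares of receptors and ligands compared, the values were 0.14, 0.14 and 0.233. The design named the shares of NOTCH1 and JAG1, and the other 5 were added after values were seen.

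Among the ligands, JAG1 fell and DLL1 rose. JAG1, whose loss in the germ line causes Alagille syndrome, was at 30.1, 31.6 and 29.3 CPM in CDK12 libraries, against 39.8, 40.0 and 39.5 CPM in control libraries. The groups were far apart relative to their spread, with means of 30.3 ± 1.18 and 39.8 ± 0.236 CPM (SD, n = 3 each). JAG1 was 1.31-fold lower with CDK12 (log2 fold change -0.39, SE 0.06, edgeR adjusted p = 5.33e-06), the largest change among the members tested.

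DLL1, a Delta-like ligand, was at 14.6, 14.6 and 13.7 CPM in CDK12 libraries, against 11.6, 11.3 and 10.1 CPM in control libraries. All CDK12 libraries lay above all control libraries. DLL1 was 1.30-fold higher (log2 fold change 0.38, SE 0.08, edgeR adjusted p = 0.000639), and it was the only member called higher.

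JAG2 and DLL4 did not pass. JAG2, the second Jagged ligand, was at 23.6, 25.0 and 26.2 CPM in CDK12 libraries and 25.0, 22.9 and 25.2 CPM in control libraries, so the groups lay over each other (log2 fold change 0.03, 95% interval -0.11 to 0.16, edgeR adjusted p = 0.785). In GENCODE 29, 469 exon bases of JAG2 are shared with a processed transcript on the same strand that is not among the counted symbols. DLL4, a ligand known best from endothelial cells, was at 4.16, 3.67 and 4.96 CPM in CDK12 libraries and 5.93, 4.70 and 4.18 CPM in control libraries. Its groups overlapped, and at 89 to 135 counts per library its interval was wide (log2 fold change -0.21, 95% interval -0.49 to 0.07, edgeR adjusted p = 0.25). Without control replicate 1 the log2 fold change of DLL4 was -0.06, without CDK12 replicate 2 it was -0.12, and without control replicate 3 or CDK12 replicate 3 it was -0.32 or -0.33, none of them called. Of the 6 endothelial markers, VWF had 36, 37 and 47 counts in CDK12 libraries and 51, 38 and 61 in control libraries (log2 fold change -0.46, edgeR adjusted p = 0.062), and KDR had 4, 0 and 0 counts against 14, 6 and 11. PECAM1, CDH5, TEK and TIE1 had 0 to 5 counts in any library. The part of these markers in the values of DLL4 was not tested.

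The ligand mix shifted with these opposite changes. The 4 ligands summed to 73.8 ± 1.23 CPM with CDK12 and 80.1 ± 2.01 CPM in control libraries (SD, n = 3 each). JAG1 made up 41.6%, 42.3% and 39.5% of the counts of the 4 ligands in CDK12 libraries, against 48.3%, 50.7% and 50.1% in control libraries. The 95% Wilson intervals of single libraries reached at most 44.6% with CDK12 and began at 46.0% or above in control libraries. DLL1 made up 20.2%, 19.5% and 18.4% in CDK12 libraries, against 14.1%, 14.3% and 12.7% in control libraries. Its lowest Wilson bound was 16.7% with CDK12 and its highest 16.1% in control libraries, so neither ligand's shares overlapped. The mean difference was -8.56 percentage points for JAG1 and 5.65 points for DLL1 (exact two-sided permutation p = 0.1 for each, the smallest possible, and 0.14 adjusted over the 7 shares). JAG2 made up 33.7% ± 1.43 with CDK12 and 30.5% ± 1.43 in control libraries (exact p = 0.1), and DLL4 5.78% ± 0.898 and 6.15% ± 0.966 (SD, n = 3 each; exact permutation p = 0.6). With counts divided by gene length, JAG1 held 33.8% ± 1.196 of the ligand total with CDK12 and 42.5% ± 1.37 in control libraries, and DLL1 29.8% ± 1.26 and 21.9% ± 1.14. The JAG2 difference was 3.28 points by counts and 1.71 points per length (exact permutation p = 0.3), and that of DLL4 was -0.87 points per length (exact permutation p = 0.5).

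**Figure D3:**
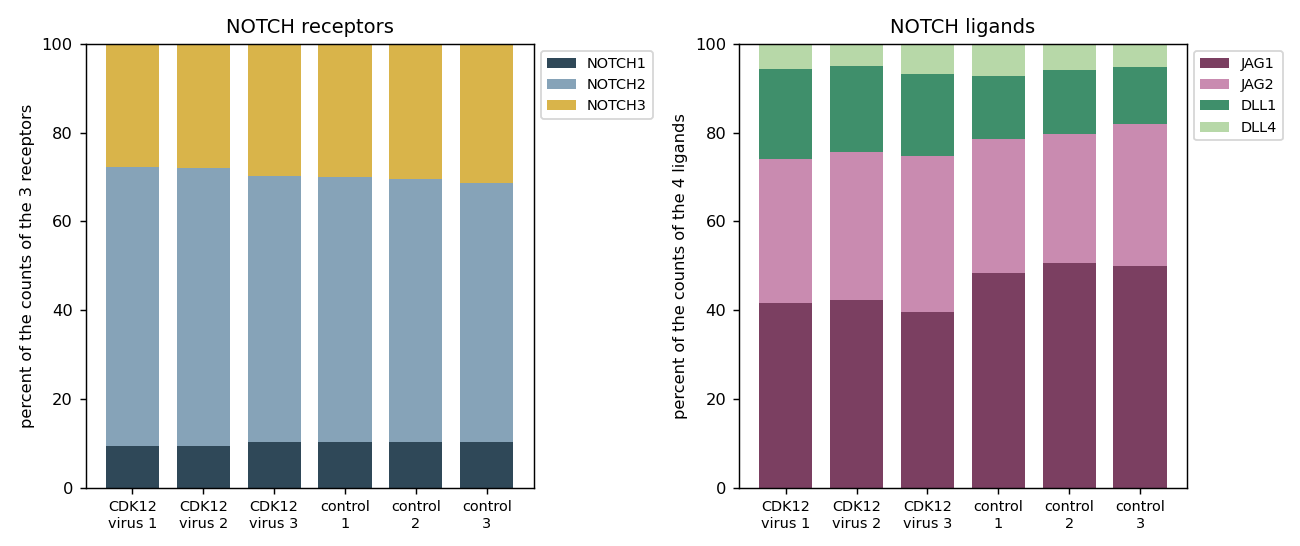
Percent of the summed counts of the 3 receptors (left) and the 4 ligands (right) that each gene took in every library; bars stack to 100%. In the ligands, JAG1 takes 39.5% to 42.3% in CDK12 libraries and 48.3% to 50.7% in control libraries, and DLL1 18.4% to 20.2% against 12.7% to 14.3%, while the receptor mix differs by a few percentage points.

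The nuclear members were at similar levels in both groups. RBPJ, the DNA-binding factor of the pathway, was at 71.4, 76.7 and 74.4 CPM in CDK12 libraries and 74.5, 79.1 and 72.5 CPM in control libraries. HES1, the repressor with 2 core matches in its promoter window, was at 41.6, 38.8 and 42.5 CPM in CDK12 libraries and 41.7, 41.2 and 43.8 CPM in control libraries. Both sets of libraries overlapped in each gene. The log2 fold change was -0.02 for RBPJ (95% interval -0.12 to 0.08, edgeR adjusted p = 0.747) and -0.04 for HES1 (95% interval -0.16 to 0.07, edgeR adjusted p = 0.576), so the intervals leave out changes of 1.2-fold in either direction for both. RBPJ has processed pseudogenes elsewhere in the genome, and its counts may hold some of their reads. HEY1, a target related to the HES genes, had 11, 5 and 3 counts in CDK12 libraries and 10, 6 and 3 counts in control libraries. The counts were at the floor of 3 in replicate 3 of both groups and above it in the other libraries. HEY1 did not pass the filter on low counts, and a difference was not detectable at this depth.

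Levels between genes were compared per length, as CPM per kilobase of exon (union of the exons in GENCODE 29, mean of 3 libraries). In CDK12 libraries the order was HES1 with 25.96, NOTCH2 with 18.9, NOTCH3 with 16.2, RBPJ with 11.4, NOTCH1 with 5.14, JAG1 with 5.11, DLL1 with 4.50, JAG2 with 4.27, DLL4 with 1.24 and HEY1 with 0.0957 CPM per kilobase. NOTCH1 and JAG1 overlapped over the libraries, as did DLL1 and JAG2, and the other neighbours in this order did not. In control libraries the order was HES1 with 26.8, NOTCH2 with 20.3, NOTCH3 with 19.4, RBPJ with 11.6, JAG1 with 6.70, NOTCH1 with 6.05, JAG2 with 4.18, DLL1 with 3.46, DLL4 with 1.44 and HEY1 with 0.110 CPM per kilobase. There NOTCH2 and NOTCH3 were the only neighbours that overlapped, and JAG1 lay above NOTCH1 and JAG2 above DLL1 in every library. NOTCH2 has extra exons in its union: by the longest transcript it was at 26.7 CPM per kilobase with CDK12 and 28.6 in control libraries, above HES1 but overlapping with it in both groups. The exact order thus depends on the transcript used for length.

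Around the members, 60 of 68 listed genes of receptor processing, ligand handling, transcription and turnover were tested, of which 11 rose and 14 fell (41.7%, against 35.1% of all genes), with a median log2 fold change of -0.03.

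Of 9 genes of receptor cleavage, 4 fell and 1 rose (55.6%, against 35.1% of all genes), and the calls were small. PSENEN, which encodes the PEN-2 subunit of gamma-secretase, fell to 51.3 ± 1.25 CPM in CDK12 libraries, against 59.0 ± 2.81 CPM in control libraries (log2 fold change -0.20, edgeR adjusted p = 0.00312). The gamma-secretase genes APH1A (log2 fold change -0.14, edgeR adjusted p = 0.00903) and NCSTN, the gene of nicastrin (-0.13, edgeR adjusted p = 0.0147), also fell, and APH1B, a relative of APH1A, rose (0.27, edgeR adjusted p = 0.0216). The fourth gene called lower was PSEN2, named to complete the count. The proteases ADAM10 and ADAM17 had log2 fold changes of 0.02 and 0.06 and did not pass. Under upper-quartile or total-count scaling, 1 of the 9 was called lower (PSENEN), and APH1A and NCSTN did not pass. APH1A was not called without control replicate 1 (edgeR adjusted p = 0.0693), nor was NCSTN without it (0.0536) or without CDK12 replicate 3 (0.0638). APH1B was lost with the DESeq2 Wald test (adjusted p = 0.0758) and without control replicate 1 (0.0839), CDK12 replicate 1 (0.0547) or CDK12 replicate 3 (0.0804).

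Of 4 tested glycosyltransferases that modify the receptors, 1 rose and 0 fell (25%, against 35.1% of all genes). The gene that rose, POFUT1, was at 82.3 ± 1.30 CPM with CDK12, against 75.9 ± 0.876 CPM in control libraries (log2 fold change 0.12, edgeR adjusted p = 0.0446). That call was lost with the DESeq2 Wald test (adjusted p = 0.07), with no filter (0.0785), and without any of 5 single libraries (edgeR adjusted p from 0.0755 to 0.133). The Fringe genes LFNG and RFNG had log2 fold changes of -0.08 and 0.00.

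Of 7 genes of ligand endocytosis, 2 fell and 1 rose (42.9%, against 35.1% of all genes). EPN1, an epsin, was at 114 ± 3.38 CPM with CDK12 and 134 ± 3.73 CPM in control libraries (log2 fold change -0.23, edgeR adjusted p = 0.00013), and DNM2, a dynamin, at 123 ± 6.04 and 140.4 ± 1.39 CPM (-0.19, edgeR adjusted p = 0.00139). Both encode general endocytic proteins. MIB1, the ubiquitin ligase that starts ligand uptake, rose to 61.3 ± 3.65 CPM with CDK12, against 54.3 ± 3.80 CPM in control libraries (log2 fold change 0.18, edgeR adjusted p = 0.0157). MIB1 did not pass without CDK12 replicate 2 (edgeR adjusted p = 0.0988) or control replicate 3 (0.141).

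Of 8 coactivators, 3 fell and 1 rose (50%, against 35.1% of all genes). MAML1, a Mastermind coactivator, was at 73.3 ± 1.06 CPM with CDK12 and 81.1 ± 2.13 CPM in control libraries (log2 fold change -0.15, edgeR adjusted p = 0.0142). The acetyltransferase genes KAT2A and CREBBP fell (log2 fold changes -0.18 and -0.13, edgeR adjusted p = 0.0182 and 0.0335), and SNW1, a cofactor that also acts in splicing, rose (0.18, edgeR adjusted p = 0.00594). The falls rest on the scaling: under upper-quartile or total-count scaling none of the 8 was called lower by edgeR's test, and 2 had an unadjusted p under 0.05. MAML1 was also lost on omission of CDK12 replicate 2 (edgeR adjusted p = 0.0507), control replicate 1 (0.0797) or control replicate 3 (0.056), and KAT2A without control replicate 2 (0.094) or CDK12 replicate 2 (0.0641). CREBBP was lost without control replicate 1 (edgeR adjusted p = 0.283) or CDK12 replicate 1 (0.177), with the replicate block (0.0705) and with the DESeq2 Wald test (0.0668), and SNW1 without control replicate 1 (edgeR adjusted p = 0.055).

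Of 14 corepressors, 2 rose and 2 fell (28.6%, against 35.1% of all genes). TLE1, a Groucho corepressor that works with HES proteins, fell to 25.8, 24.2 and 24.9 CPM in CDK12 libraries, against 40.2, 36.7 and 35.7 CPM in control libraries. The groups were well apart (log2 fold change -0.59, SE 0.06, edgeR adjusted p = 2.56e-08), and TLE1 still passed in a test against a fold of 1.2 (edgeR glmTreat, adjusted p = 5.99e-05). L3MBTL3, which represses with RBPJ, rose to 15.9 ± 0.949 CPM with CDK12, against 12.9 ± 0.937 CPM in control libraries (log2 fold change 0.30, edgeR adjusted p = 0.00375). TLE2 rose (0.18, edgeR adjusted p = 0.0233) and CTBP1 fell (-0.12, edgeR adjusted p = 0.0317). Under upper-quartile or total-count scaling, 5 of the list were higher and 1 lower. TLE2 was lost on omission of CDK12 replicate 3 (edgeR adjusted p = 0.129), control replicate 1 (0.0584) or control replicate 2 (0.0942). CTBP1 did not pass with those scalings (0.14 and 0.166), with the DESeq2 Wald test (0.0512), or on omission of CDK12 replicate 2 (0.153), control replicate 1 (0.1) or control replicate 3 (0.138).

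Of 9 genes of receptor turnover and inhibition, 4 rose and none fell by edgeR's test, with 5 higher and 0 lower at an unadjusted p under 0.05, and the median log2 fold change was 0.14. In either direction 44.4% of the 9 were called, against 35.1% of all genes, so the count is near the background. Of all genes, 16.2% were called higher. Under upper-quartile or total-count scaling, 5 of the 9 were higher and 0 lower, with a median of 0.18. ITCH, a ubiquitin ligase that acts on NOTCH receptors, was at 122 ± 2.98 CPM with CDK12 and 109.7 ± 3.08 CPM in control libraries (log2 fold change 0.16, edgeR adjusted p = 0.0055). NRARP, a target gene whose product limits the NOTCH complex, was at 20.3, 19.5 and 19.1 CPM in CDK12 libraries, against 17.3, 15.4 and 16.7 CPM in control libraries (log2 fold change 0.25, SE 0.07, edgeR adjusted p = 0.00631). Every CDK12 library had more NRARP than every control library. DTX3, a deltex gene, also rose (0.16, edgeR adjusted p = 0.0249), but not without control replicate 1 (edgeR adjusted p = 0.0658), control replicate 2 (0.11), CDK12 replicate 2 (0.0553) or CDK12 replicate 3 (0.0876). DTX1, the fourth, is described with the targets.

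Further target genes went both ways: of 9 tested, 3 rose and 3 fell (66.7%, against 35.1% of all genes), and NRARP is among those that rose. HES2, a HES gene of low abundance, had 44, 30 and 32 counts in CDK12 libraries, against 14, 7 and 26 counts in control libraries. Its groups did not overlap, but control replicate 3 came close (log2 fold change 1.03, SE 0.28, edgeR adjusted p = 0.00514). Without control replicate 3 the log2 fold change was 1.54, and without control replicate 2 it was 0.73. DTX1 had 37, 42 and 18 counts in CDK12 libraries, against 16, 19 and 18 in control libraries, and the groups overlapped (log2 fold change 0.73, edgeR adjusted p = 0.0405). DTX1 was lost under limma-voom (adjusted p = 0.0818) and DESeq2 (0.138), and without CDK12 replicate 1 (edgeR adjusted p = 0.0852), CDK12 replicate 2 (0.257), control replicate 1 (0.114) or control replicate 3 (0.105). MYC, a growth regulator that many pathways besides NOTCH control, was at 89.6 ± 2.10 CPM with CDK12 and 115 ± 4.71 CPM in control libraries (log2 fold change -0.36, edgeR adjusted p = 5.68e-07). CCND1, the gene of cyclin D1, fell likewise (-0.31, edgeR adjusted p = 3.21e-07). CCND3 fell by 0.16 on the log2 scale (edgeR adjusted p = 0.0422), but was lost with upper-quartile factors (edgeR adjusted p = 0.116), total counts (0.131), no filter (0.0622), the DESeq2 Wald test (0.105), and without control replicate 1 (0.0852), control replicate 3 (0.176), CDK12 replicate 1 (0.103) or CDK12 replicate 2 (0.11). HES4, which like HES1 holds the RBPJ core in its promoter window, was at 10.2 ± 1.29 CPM with CDK12 and 11.2 ± 2.59 CPM in control libraries and did not pass (log2 fold change -0.14, edgeR adjusted p = 0.353).

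The other receptors and ligands were scarce. NOTCH4, the fourth receptor, had 4, 10 and 7 counts in CDK12 libraries and 9, 9 and 4 counts in control libraries, and DLL3 and DLK1 had 0 to 4 counts in any library, so none of these was tested. DLK2 was at 1.32 ± 0.229 CPM with CDK12 and 1.15 ± 0.121 CPM in control libraries (log2 fold change 0.20, edgeR adjusted p = 0.505). DNER, an atypical ligand of neural tissue, was at 0.575 ± 0.08 CPM with CDK12 and 0.865 ± 0.0132 CPM in control libraries (log2 fold change -0.59, SE 0.28, edgeR adjusted p = 0.0994).

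**Figure D4:**
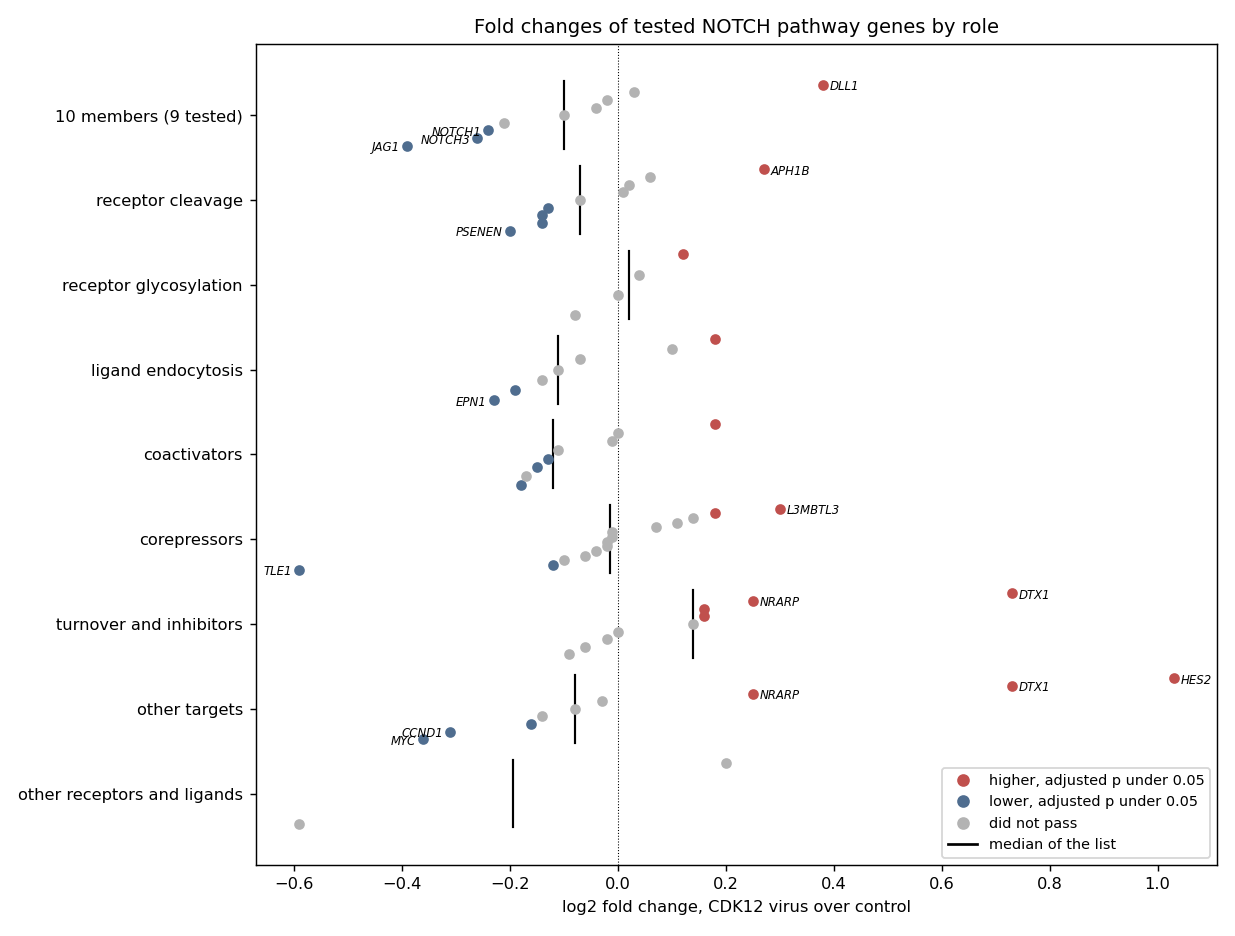
Log2 fold change (horizontal axis, CDK12 over control) of each tested gene by its role in the pathway; colours give the edgeR call and vertical bars the median of each list. JAG1 at -0.39 and DLL1 at 0.38 are the outermost of the members, TLE1 at -0.59 and HES2 at 1.03 the outermost called genes of the other lists, and NRARP and DTX1 stand in 2 lists.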

How the data were processed

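PolyA-selected RNA was sequenced from both ends in 6 libraries, 3 per group, per the labels' protocols. Deposited values are raw gene counts, whole numbers that the authors had not normalized. CASAVA 1.8, STAR 2.6.0c, featureCounts and Subread 1.6.2, and the build hg19, are listed per the submitters' processing notes. The kit was stranded; the sources used here do not give the annotation, the strand setting or how multiply mapped reads were counted. Near-identical copies are therefore uncertain. From these counts, genes were filtered (filterByExpr, minimum count 10, minimum total 15), scaled by TMM and compared with the quasi-likelihood F test of edgeR 4.0.16 in R 4.3.3 on group alone. Its p-values were adjusted (Benjamini-Hochberg) across the 14665 genes tested, with a threshold of 0.05. An edgeR adjusted p in the text is of this kind unless an alternative is named with it. The value then comes from that refit and was adjusted across the genes tested in it. The SE of a log2 fold change is its size over the square root of F. Alternatives used DESeq2 1.42.0, limma 3.58.1, other scalings and filters, a replicate block, and omission of single libraries. Lengths come from GENCODE 29 and promoter sequences from RefSeq, both on GRCh38. The members, lists and tests were chosen with earlier results of these data known. Genes were named by a rule: all members, and up to 3 called genes with the smallest p in each direction from each list, with further genes, such as those given as not passing, chosen after their values were seen. A result on 1 listed gene is not reported here.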

Additional observations from a re-analysis of the deposited data

How the results depend on the processing

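The calls of NOTCH1, NOTCH3, JAG1 and DLL1 held in direction and threshold in all 14 alternatives other than the test against a fold of 1.2, in which edgeR's glmTreat called 0 members higher and 0 lower (2 members, JAG1 and DLL1, had an unadjusted p under 0.05; JAG1 had an adjusted p of 0.0604). Under it 459 of all genes were higher and 479 lower, against 2371 and 2772. Leaving out single libraries gave 1 member higher and 3 to 4 lower, and 1789 to 2310 genes higher and 2199 to 2735 lower. The share difference of JAG1 ran from -9.25 to -7.77 points and that of NOTCH1 from -0.78 to -0.37 points over the same omissions. RBPJ, never called, turned to a log2 fold change of 0.01 with upper-quartile factors, 0.02 with total counts, and 0.01 without CDK12 replicate 1 or control replicate 2 (range over single omissions -0.05 to 0.01); JAG2, never called, turned to -0.01 without CDK12 replicate 3 and -0.02 without control replicate 2 (range -0.02 to 0.07). The share of DLL4 turned to 0.07 points without CDK12 replicate 2 and 0.15 points without control replicate 1 (range -0.83 to 0.15). The causes of these turns were not tested.

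Whether same-numbered libraries of the groups belong together could not be settled, since deviations around the mean of 3 libraries are not independent. The deviations of same-numbered libraries correlated at -0.12, 0.13 and 0.07. With the replicate block 1 member was higher and 3 were lower, and 2330 and 2776 of all genes, and not every library correlated best with its own number. Depth limits HEY1, which edgeR tested with no filter gave a log2 fold change of -0.14 (adjusted p = 0.884), and DLL4.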

Other observations

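Some pathway genes under the filter had few counts that lay mostly to 1 side; they were picked after their values were seen and were not tested. MFNG, a Fringe gene, had 3, 4 and 9 counts in CDK12 libraries and 0, 0 and 1 counts in control libraries. HEYL, a relative of HEY1, had 12, 6 and 11 counts in CDK12 libraries and 8, 0 and 3 counts in control libraries, and HEY2 had 4, 6 and 9 against 1, 2 and 6. HES7 had 4, 0 and 4 counts in CDK12 libraries and 1, 0 and 1 in control libraries, while HES5 had 0, 0 and 2 against 3, 2 and 1. NOTCH2NL took 12.5%, 12.6% and 13.8% of the summed counts of NOTCH2 and NOTCH2NL in CDK12 libraries, against 14.8%, 14.8% and 14.4% in control libraries, without overlap.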
